A study of Mus musculus with 5 samples.

Results

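The copy of 18S ribosomal RNA analysed here lies on the plus strand of chromosome 17 of the mouse genome (mm10), chr17:39846353-39848201, and is 1849 bases long. All positions of the deposited pileups within these bounds on the plus strand were taken, which gave 421 positions in any library, of 512355 positions in the whole series. 418 of them were present in the libraries of the METTL3 inhibition dataset, 420 in those of the Mettl5 dataset and 417 in all 5 libraries. The copy holds 420 adenosines, and the 3 positions that lay on a reference T were kept and are named as such. Adenosines 1083 and 1106 had a position in neither dataset, adenosine 491 had one in the METTL3 inhibition dataset alone, and adenosines 102 and 175 had one in the Mettl5 dataset alone. No position of the copy was on the minus strand. GENCODE M21 lists a ribosomal RNA transcript (CT010467.1) over the same bases on the opposite strand, and its reverse complement starts and ends with the ends of 18S, while the lncRNA Gm42418 overlaps the copy on the plus strand. Reads of other ribosomal DNA copies would align here too, so the values describe the pool of 18S molecules in a library and not transcripts of a single locus.

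The data were direct RNA sequencing (ONT) libraries of mouse embryonic stem cells (mESCs), in which native RNA molecules pass through a nanopore and each adenosine of each read is called as unmodified, as m6A, as another modification or as failed. In the METTL3 inhibition dataset, 1 library came from cells given 30 μM STM2457, a METTL3 inhibitor, for 48 h and 1 library from cells given 0.025% v/v DMSO, the solvent. Both came from E14 mESCs that carry the reporters 2C::3xtbGFP-PEST and Zscan4::mCherry-PEST, a doxycycline-dependent APOBEC1-YTH transgene and a homozygous FKBP12 F36V knock-in at METTL3, the last 2 not induced. In the Mettl5 dataset, 1 library came from WT mESCs and 1 library each from the Mettl5-KO clones #1 and #2, lines made in an earlier study. The clones were the only libraries of 1 group. Every comparison below, each clone against the 1 WT library included, sets single libraries side by side, and its test compares those libraries and not the conditions. The datasets differed in cell line and in the batch that the labels give, and the libraries of 1 dataset shared a batch.

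18S rRNA is the RNA of the small ribosomal subunit. It is cut from a long precursor, in which the 5′ external transcribed spacer (5′ ETS) lies before it and the internal transcribed spacer ITS1 follows it. Its adenosines carry several known modifications. METTL5, together with TRMT112, places m6A on a single adenosine near the 3′ end of human 18S, a pair of neighbouring adenosines closer to the 3′ end is dimethylated on the same nitrogen by DIMT1, and box C/D snoRNPs with fibrillarin methylate the ribose of further adenosines (2′-O-methylation). METTL3 is the main m6A writer of mRNA. Mature 18S has no poly(A) tail, while the adapters of these libraries were ligated through poly(T).

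The sequences of the 3′ end are shown first because the differences between libraries lay there. Each is given 5′ to 3′ on the plus strand of mm10 with 10 bases on either side, fewer where 18S ends, and the capital letter is the adenosine in question. Positions count from 1 at the 5′ end of the copy. Position 1812 is the METTL5 target adenosine, A1832 in human numbering, and positions 1830 and 1831 are the dimethylated pair, A1850 and A1851 in human numbering. The calling model has classes for m6A, inosine and 2′-O-methyladenosine and none for a dimethylated base. An m6A call at this pair therefore cannot be read as m6A.
Position 1811, chr17:39848153-39848173: taaaagtcgtAacaaggtttc
Position 1812, chr17:39848154-39848174: aaaagtcgtaAcaaggtttcc
Position 1814, chr17:39848156-39848176: aagtcgtaacAaggtttccgt
Position 1830, chr17:39848172-39848192: tccgtaggtgAacctgcggaa
Position 1831, chr17:39848173-39848193: ccgtaggtgaAcctgcggaag

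A further set is shown because its adenosines had the highest levels of other modification. All 5 belong to the adenosines known as 2′-O-methylated in human 18S, and the capital letter is again the adenosine in question.
Position 159, Am159 in human numbering: aactgtggtaAttctagagct
Position 475, Am468 in human numbering: acatccaaggAaggcagcagg
Position 583, Am576 in human numbering: tccactttaaAtcctttaacg
Position 675, Am668 in human numbering: tgctgcagttAaaaagctcgt
Position 1685, Am1678 in human numbering: tgcgttgattAagtccctgcc

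The last set is shown because its adenosines had some of the highest m6A levels away from the 3′ end and values in all 5 libraries.
Position 103: tggctcattaAatcagttatg
Position 492: caggcgcgcaAattacccact
Position 676: gctgcagttaAaaagctcgta
Position 1390: ccgataacgaAcgagactctg

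The libraries held 71574467 valid calls for DMSO, 54051900 for STM2457, 22025887 for WT, 17897440 for Mettl5-KO clone #1 and 19532075 for clone #2, over all positions of the series. The stem cell label was checked against exons of 10 marker genes, of which 9 held positions in the METTL3 inhibition dataset and 7 in the Mettl5 dataset, while of 8 markers of differentiated or feeder cells 1 (Vim) and 0 did. No position used here lay on exons of Mettl5, so the RNA of the deleted gene was not analysed here.

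18S took a far larger share of the WT library than of any other. It held 12.4% of all valid calls in WT, which was 2736507 calls. The share was 0.444% in clone #1 (exact binomial 95% interval from 0.441% to 0.447%), 0.429% in clone #2 (0.426% to 0.432%), 0.117% in DMSO (0.116% to 0.118%) and 0.087% in STM2457 (0.0862% to 0.0878%). These intervals cover counting error only, and calls of the same read are not independent. The median number of valid calls per 18S position was 7070.5 in WT, with a range from 331 to 8153. It was 207 in DMSO (55 to 279), 118 in STM2457 (25 to 161), 198 in clone #1 (35 to 265) and 214 in clone #2 (31 to 271). The WT level at a position thus rested on many more reads than that of any other library, and the precision of every comparison below is set by the shallower library.

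In WT nearly all of the coverage of 18S was lost at its 3′ end, while in the other libraries most of it remained in ITS1. Over the last 100 bases of 18S, the median number of reads crossing a position, all call classes counted, was 194 in DMSO, 126 in STM2457, 8221 in WT, 260 in clone #1 and 256 in clone #2. Over the first 100 bases of ITS1 it was 186.5, 110, 162, 164 and 164 in the same order. The coverage of ITS1 was thus alike in the 3 libraries of the Mettl5 dataset, and the difference lay in coverage that was lost at the end of 18S. Expressed as a share, ITS1 kept 96.1% of the 18S coverage in DMSO, 87.3% in STM2457, 1.97% in WT, 63.1% in clone #1 and 64.1% in clone #2. At the 5′ end, coverage rose from a median of 137 reads in the 100 bases of 5′ ETS before 18S to 7991.5 in WT, so 5′ ETS had 1.71% of the coverage at the start of 18S. That share was 31.3% in DMSO, 37.8% in STM2457, 54.1% in clone #1 and 51% in clone #2, each from 3 positions of 5′ ETS. These shares are net differences in coverage, and whether the same reads cross an end of 18S was not observed. Whether a read held spacer sequence cannot be joined to its modification calls, since the files give sums per position.

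**Figure D1:**
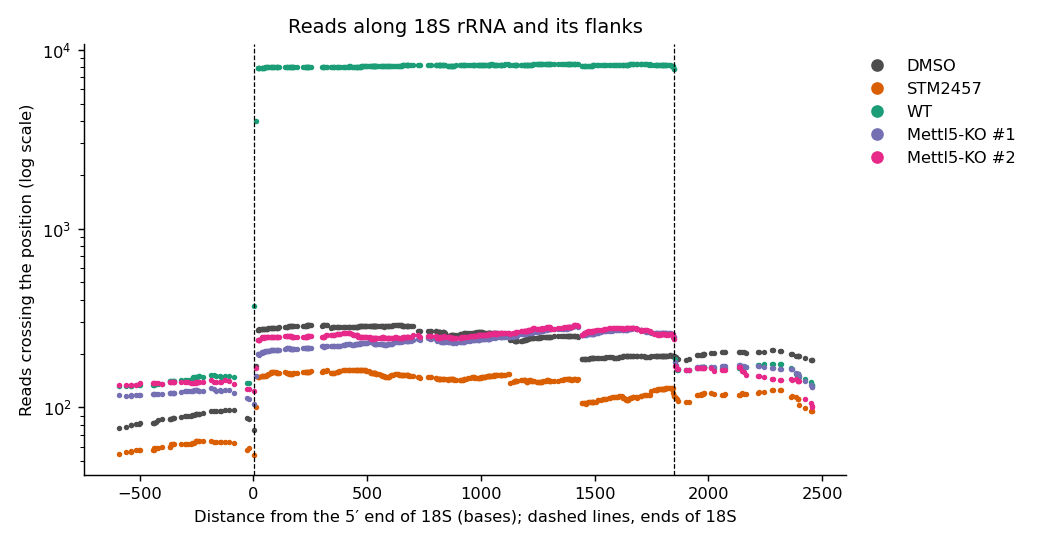
Reads crossing each deposited position, all call classes counted, on a log scale against the distance from the 5′ end of 18S, for the 5 libraries; dashed lines mark both ends of 18S. WT rises to a median of 8221 reads over the last 100 bases of 18S. It falls to 162 over the first 100 bases of ITS1, where the other libraries lie between 110 and 186.5.

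Within 18S, coverage was even in WT and fell in steps in DMSO and STM2457. In the clones it was higher toward the 3′ end than at the start, with a smaller step. The median of valid calls in the last 10% of the molecule was 1.07 times that in the first 10% in WT, 0.768 times in DMSO, 0.836 times in STM2457, 1.33 times in clone #1 and 1.13 times in clone #2 (SD between the clones 0.14). A step was seen near position 1445. Reads crossing fell from 250 to 187 there in DMSO, or by 25.2%, and from 144 to 106 in STM2457, or by 26.4%. The falls were 10.5% in clone #1 and 10.8% in clone #2 near the same place, and 2.83% in WT, placed between positions 1421 and 1428. Falls compare medians of neighbouring positions, so their place is approximate. In DMSO, 249 reads crossed position 1428 and 187 crossed position 1445. Leaving out the first 100 and the last 20 bases, the fall near position 1445 was the largest inside 18S in each of the 5 libraries. DMSO and STM2457 had a second fall, by 8.53% and 7.89%, at the same place in both. Reads crossing went from 258 at position 1126 to 239 at position 1129 in DMSO, and from 153 to 137 in STM2457. No test was run on coverage, since 1 read spans many positions.

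Most of 18S carried few m6A calls, as did most positions of the series. The mean m6A level over positions, m6A calls as a percent of valid calls, was 2.24% in DMSO, 2.03% in STM2457, 3.48% in WT, 3.35% in clone #1 and 3.44% in clone #2. Levels were under 5% at 376 of 418 positions in DMSO and 377 in STM2457, and at 363 of 420 in WT, 363 in clone #1 and 364 in clone #2. It reached 25% at 7 positions in DMSO, 5 in STM2457, 11 in WT, 12 in clone #1 and 10 in clone #2. Positions at 25% or more made up 1.67%, 1.2%, 2.62%, 2.86% and 2.38% of 18S in the same order. Of all positions in these libraries they made up 1.35%, 0.307%, 0.797%, 0.836% and 0.844%. The mean m6A level over all positions was 1.85%, 1.01%, 1.77%, 1.78% and 1.79%. Levels under 5% made up 93.4%, 95.6%, 91.8%, 91.7% and 91.7% of all positions. On 18S they made up 90%, 90.2%, 86.4%, 86.4% and 86.7%. In every library 18S thus had a higher mean and a smaller share of such low levels.

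In all, 18 positions reached 25% m6A in at least 1 library, and they fell into 2 sets. The first were positions 1811, 1812, 1814, 1830 and 1831 at the 3′ end, and all 5 had their highest level in WT. In the last 40 bases of 18S, which hold 12 of the positions, the mean m6A level was 22% in WT, 4.36% in DMSO, 4.85% in STM2457, 8.69% in clone #1 and 7.55% in clone #2. Over the rest of the molecule it was 2.94% in WT, 2.18% in DMSO, 1.95% in STM2457, 3.19% in clone #1 and 3.32% in clone #2, so WT was not the highest there.

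The second set lay before the 3′ end. All had values in both datasets, with the exception of positions 26 and 102, which had values in the Mettl5 dataset alone. The highest was position 26, at 80% in WT, 69.4% in clone #1 and 81.3% in clone #2. Its reference base is T, and 51.1% to 54% of the reads crossing it had another base than A. It lies next to position 27, a known 2′-O-methylated adenosine (Am27). Position 103 had an m6A level of 65.4% in DMSO, 64.1% in STM2457, 45.7% in WT, 48.4% in clone #1 and 42.6% in clone #2. Position 1390, the known 2′-O-methylated Am1383, had 51.1%, 40%, 46.8%, 57.9% and 56.8% in the same order. Both were high in every library, and at position 1390 the clones averaged 57.3% ± 0.723 (SD, n = 2). Position 676, next to a known 2′-O-methylated adenosine, had 38.7%, 22.2%, 47.3%, 46.7% and 48.5%, and position 492, next to another, had 28.2%, 10.8%, 34.8%, 47% and 48.1%. At positions 103 and 676 these values describe a minority of the calls, since 66.8% to 73.6% of the calls there failed the confidence filter. The valid calls left were 2420 and 2128 in WT and far fewer in the other libraries, with 78 and 75 in DMSO. Positions 102, 163, 173, 471, 818, 819, 926 and 1038 made up the rest, and their highest level in any library was between 27.3% and 54.5%.

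The DRACH motif of mRNA m6A was present at 32 of the positions tested in 18S. Their median m6A level was 0.366% in DMSO, 0% in STM2457, 0.475% in WT, 0.698% in clone #1 and 0.791% in clone #2. Of the 32, 2 reached 25% m6A, both in WT alone, and these were positions 1812 and 1831. The other positions at 25% or more had no DRACH motif.

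**Figure D2:**
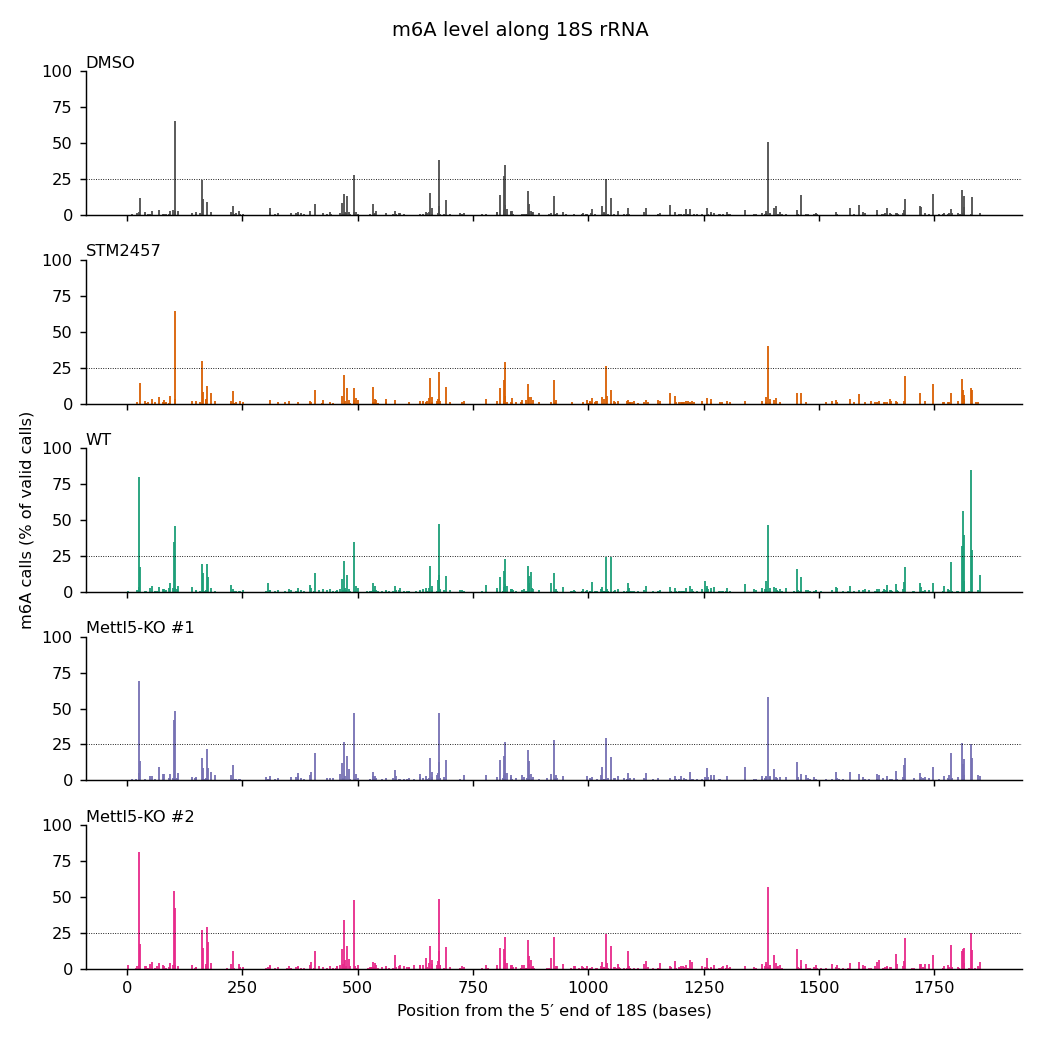
m6A level, as a percent of valid calls, at each position of 18S from the 5′ end, with 1 panel for each library; the dotted line is at 25%. The 3′ end reaches 85.2% in WT and stays at or under 26.1% in the other libraries, while peaks such as position 1390 stand in all 5 panels.

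The comparison of the Mettl5-KO clones with WT asks which adenosines of 18S have a lower share of m6A calls without METTL5. 3 of 420 positions were lower in both clones, at an adjusted p below 0.05 and a difference of at least 5 percentage points in each, against 0.00204% of all 195787 positions of the dataset, or 4 positions. With at least 100 valid calls in every library, 3 of 389 were lower against 0.0168% of all positions. They were the METTL5 target 1812, its near neighbour 1814 and position 1830, the first adenosine of the dimethylated pair. 0 positions were higher in both clones, as in the whole dataset (0%). At an unadjusted p below 0.05 in Fisher's exact test, 10 positions were lower in both clones and 12 were higher in both. Unadjusted counts over all positions are not given, here or below, so such counts cannot be set against the whole dataset.

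At the METTL5 target, position 1812, the m6A level was 56.3% in WT (1720 of 3054 valid calls, 95% interval from 54.5% to 58.1%). It was 11.6% in clone #1 (15 of 129, 6.66% to 18.5%) and 13.7% in clone #2 (19 of 139, 8.43% to 20.5%), a mean of 12.6% ± 1.44 (SD, n = 2). The clones did not differ from each other beyond these intervals, and both were far below WT. The level fell by 44.7 points in clone #1 and by 42.7 points in clone #2, and the adjusted p-values were 2.8e-20 and 1.8e-19 (Fisher's exact test, Benjamini-Hochberg adjustment). It kept 20.6% and 24.3% of the WT level. In the libraries of the other dataset, which have METTL5, position 1812 was at 1.5% in DMSO (2 of 133 calls, 0.183% to 5.33%) and 9.09% in STM2457 (7 of 77 calls, 3.73% to 17.8%). The WT level was therefore the exception among the 5 libraries, and the clones lay above DMSO in value (adjusted p = 0.14 in clone #1 and 0.037 in clone #2, Fisher's exact test).

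Position 1830, which is dimethylated by DIMT1 and not a METTL5 target, showed the larger difference. Such a base has no class in the calling model, so the m6A calls at position 1830 need not be m6A. Its m6A level was 85.2% in WT (84.3% to 86.1%), 25.6% in clone #1 (19.9% to 32%) and 25.1% in clone #2 (19.4% to 31.6%), and the clone mean was 25.4% ± 0.326 (SD, n = 2). It fell by 59.7 and 60.1 points, with adjusted p-values of 8.4e-76 and 4.2e-74 by Fisher's exact test. The clones kept 30% and 29.5% of the WT level, a share close to that at position 1812. DMSO had 1.08% and STM2457 10.8% at this position.

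Position 1814 had an m6A level of 39.7% in WT, 14.8% in clone #1 and 14.8% in clone #2 (clone mean 14.8% ± 0.0573, SD, n = 2). Adjusted p-values of Fisher's exact test were 5.6e-08 and 6.5e-08. DMSO had 13.2% and STM2457 6.17% there, so DMSO and the clones overlapped. The second adenosine of the pair, position 1831, had 29.2% in WT, 15.8% in clone #1 and 13.4% in clone #2, and passed in clone #2 (adjusted p = 0.0095, Fisher's exact test) and not in clone #1 (adjusted p = 0.53). Position 1811, the base before the METTL5 target, had 32.3% in WT, 26.1% in clone #1 and 12.1% in clone #2, and likewise passed in clone #2 alone (adjusted p = 0.0065, Fisher's exact test). Clone #2 was lower than clone #1 at position 1811 by 14 points, which did not pass (adjusted p = 1, Fisher's exact test).

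The level at the METTL5 target relative to that at the dimethylated position 1830 asks whether the target fell further. The ratio was 0.661 in WT (95% interval from 0.639 to 0.683, by a log-normal approximation that treats the positions as independent), 0.455 in clone #1 (0.268 to 0.77) and 0.544 in clone #2 (0.337 to 0.879). Both clones were lower than WT in this ratio and the intervals of both included the WT value, so a larger fall at the target than at position 1830 was not detectable at this depth. STM2457 had a ratio of 0.841 (0.347 to 2.04), and DMSO, with 2 m6A calls at either position, had 1.39 (0.198 to 9.75).

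The share of coverage that ended with 18S rose from DMSO over STM2457 and the clones to WT, as did the levels at positions 1812 and 1830. Between the clones, the order was the same at position 1830 and reversed at position 1812. Each value comes from a single library. The part of the coverage over the last 100 bases that was missing over the first 100 bases of ITS1 was 3.87% in DMSO, 12.7% in STM2457, 36.9% in clone #1, 35.9% in clone #2 and 98% in WT. The m6A level at position 1830 was 1.08%, 10.8%, 25.6%, 25.1% and 85.2% in that order of libraries, and the level at position 1812 was 1.5%, 9.09%, 11.6%, 13.7% and 56.3%. The libraries with less coverage ending at 18S than WT thus had lower levels at both positions. The shares of DMSO and STM2457 depend on the stretch of ITS1 taken, as given above, and so does the contrast between them. DMSO was below STM2457 at positions 1812 and 1830, which was not so at the following positions of the 3′ end. STM2457 had 15.6%, 43.9%, 32% and 0% of the WT level at positions 1814, 1815, 1831 and 1849. DMSO had 33.2%, 68.6%, 43.2% and 9.47% of it there. At position 1811 both had 53.8% of the WT level, and clone #2 had 37.4%. The part of spacer-containing reads in the difference between the clones and WT was not tested. The loss of METTL5 and the lower share of coverage ending at 18S cannot be told apart in these libraries. In comparison with DMSO, which kept even more of its coverage in ITS1, 0 of 417 positions were lower in both clones, and both were higher at positions 1786 and 1830. The share of all positions called in that comparison is not given here, so these counts have no background beside them.

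The failed calls limited the values at the target as well. At position 1812, 59% of calls failed the confidence filter in WT, 47.3% in clone #1, 39.8% in clone #2, 27.3% in DMSO and 37.4% in STM2457. At position 1830 the failed share was 17.8%, 13%, 15.2%, 4.15% and 10.5% in the same order. With failed calls added to the denominator, 2 positions were lower in both clones, 1812 and 1830, and position 1814 no longer passed. The m6A level at position 1812 then differed from WT by -17 points in clone #1 (adjusted p = 2.7e-07, Fisher's exact test) and by -14.9 points in clone #2 (adjusted p = 0.00028), and that at position 1830 by -47.8 and -48.8 points. With WT counts scaled down to the depth of each clone, positions 1812, 1814 and 1830 were lower in both clones.

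**Figure D3:**
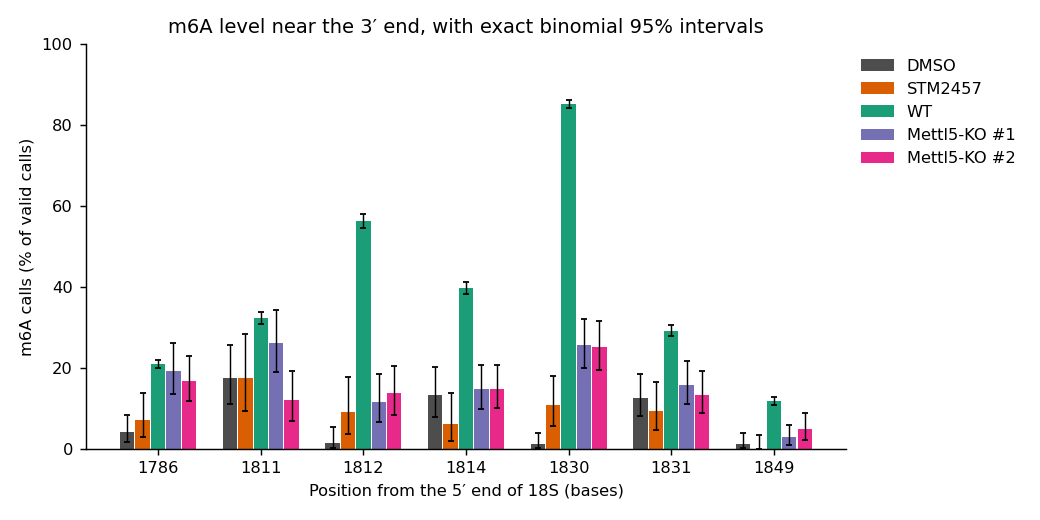
m6A level, as a percent of valid calls, at the positions of the last 70 bases of 18S with 10% or more in WT that are named in the text, for the 5 libraries; bars are the levels and error bars exact binomial 95% intervals. WT is the highest at each of the 7 positions, with 85.2% at position 1830 against 25.6% and 25.1% in the clones.

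Outside the 3′ end, the clones and WT differed little. Over all 420 positions, the difference in m6A level between clone #1 and WT had a median of -0.0297 points, with 218 positions lower and 201 higher, and that of clone #2 a median of 0.055 points, with 200 lower and 219 higher. The median over all positions of the dataset was 0 in both. The absolute difference from WT had a median of 0.506 points in clone #1 and 0.514 points in clone #2, and 95% of positions lay within 5.18 and 5.54 points. Between the clones it was 0.746 points, with 95% of positions within 4.24 points. Position 229 was higher in clone #2 alone by the test, with 2.38% in WT, 10.9% in clone #1 (adjusted p = 0.14, Fisher's exact test) and 12.3% in clone #2 (adjusted p = 0.00097). Clone #2 against clone #1 gave 0 called positions of 420, against 0.00153% of all positions, and 7 at an unadjusted p below 0.05 in Fisher's exact test.

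**Figure D4:**
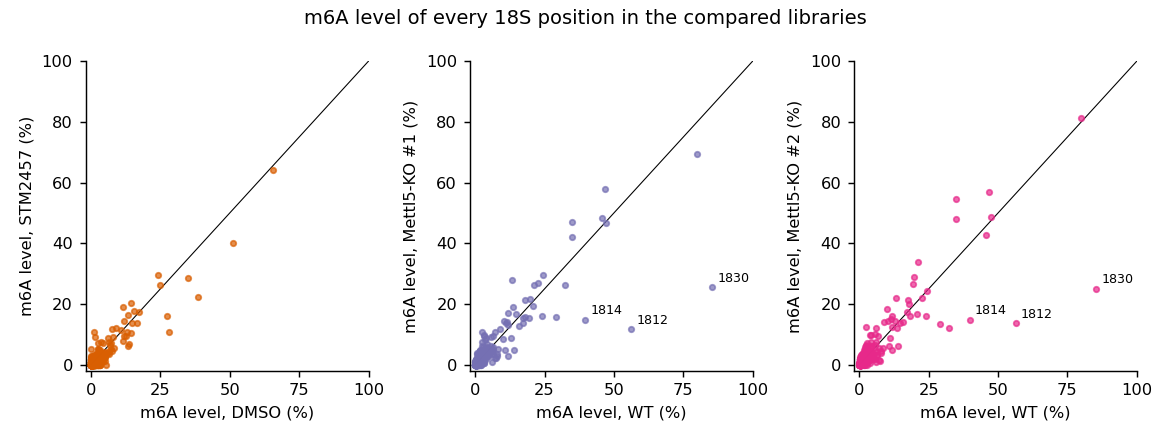
m6A level of every 18S position in 1 library against another, in percent of valid calls, for STM2457 against DMSO and each clone against WT; the line marks equal levels. Positions 1812, 1814 and 1830 lie below the line in both clones, while no point in the STM2457 panel passed the test as lower.

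The comparison of STM2457 with DMSO asks whether inhibition of METTL3 changes m6A on 18S. 0 of 418 positions were lower in STM2457, against 1.3% of all 471848 positions of the dataset, and 0 were lower at an unadjusted p below 0.05 in Fisher's exact test. With at least 100 valid calls in both libraries, 0 of 305 positions were lower, against 1.94% of all such positions. The 32 DRACH positions had a median difference of 0 points, with 13 lower and 9 higher. Because their median level in DMSO was 0.366%, a fall of 5 points could not have been seen at most of them.

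Positions with a higher m6A level had room for a fall. Those given here have no DRACH motif and may not be METTL3 sites, so they cannot decide the question. Position 1390 is itself a known 2′-O-methylated adenosine, and positions 676 and 492 each lie next to one. Position 103 was at 65.4% in DMSO and 64.1% in STM2457, position 1390 at 51.1% and 40%, position 676 at 38.7% and 22.2%, and position 492 at 28.2% and 10.8%. Each missed the threshold (adjusted p = 1, Fisher's exact test). These positions had 78, 135, 75 and 71 valid calls in DMSO and 39, 75, 36 and 37 in STM2457. The differences at positions 676 and 492 were therefore not distinguishable from counting error after adjustment over all positions.

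1 of 418 positions was higher in STM2457, against 0.0017% of all positions, or 8. It was position 1830, at 1.08% in DMSO (0.131% to 3.85%) and 10.8% in STM2457 (5.71% to 18.1%), a difference of 9.73 points (adjusted p = 0.018, Fisher's exact test). The METTL5 target 1812 was next, at 1.5% and 9.09%, with a difference of 7.59 points and an adjusted p of 0.67. The share of coverage ending with 18S was higher in STM2457 as well, at 12.7% against 3.87%, and its part in this difference was not tested.

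WT and DMSO, the libraries without deletion or inhibitor, differed at more positions than any pair above. 10 of 417 positions were higher in WT, against 0.172% of the 155280 positions that both datasets hold, and 2 were lower, against 0.0489%. The higher ones were positions 305, 876, 1253, 1453, 1786, 1812, 1814, 1830, 1831 and 1849. 6 of them lay within the last 70 bases. The largest differences were 84.2 points at position 1830, 54.8 points at position 1812 and 26.5 points at position 1814, with adjusted p-values of 6.2e-137, 3.3e-38 and 1.4e-07 in Fisher's exact test. Position 1849, the last base of 18S, was at 11.7% in WT, 1.11% in DMSO, 0% in STM2457, 2.8% in clone #1 and 4.79% in clone #2.

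Position 1786 behaved otherwise than the rest of the 3′ end. It was at 4.19% in DMSO, 7% in STM2457, 20.9% in WT, 19.3% in clone #1 and 16.8% in clone #2, so all 3 libraries of the Mettl5 dataset lay above both libraries of the METTL3 inhibition dataset. WT exceeded DMSO by 16.7 points (adjusted p = 2.5e-06, Fisher's exact test), clone #1 by 15.1 (adjusted p = 0.0081) and clone #2 by 12.6 (adjusted p = 0.033), and the clones did not pass against WT (adjusted p = 1 in both). Position 1453 was at 15.9% in WT, 12.6% in clone #1 and 14.1% in clone #2, against 3.48% in DMSO and 7.58% in STM2457. The lower positions were 818, at 14.6% in WT and 27.3% in DMSO, and 1586, at 1.67% in WT and 6.75% in DMSO. Cell line and batch differed between the datasets and cannot be told apart here.

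Calls of another modification, which for adenosine are inosine or 2′-O-methyladenosine in the model the authors used and are summed in the files, formed sharp peaks on 18S. 17 positions reached 25% in at least 1 library. In DMSO 14 did, which was 3.35% of 18S positions against 0.0629% of all positions of that library, and in WT 13 did, or 3.1% against 0.0562%. Of the 110 positions of the WT library at this level, 18S thus held 13.

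Of 13 adenosines known as 2′-O-methylated in human 18S, all 13 were among these 17 positions. The first 4 names (Am27, Am99, Am159 and Am166) have an adenosine at the same number in this copy, and the later 9 have one when the number is shifted by 7 bases, the only shift from 0 to 20 that puts all 9 on an adenosine. By the same number or 1 base further along alone, 8 of 13 would match an adenosine. The shift was chosen from the reference bases and not from the levels. The median level of other modification at the known positions was 80% in DMSO, 80.5% in STM2457, 73.5% in WT, 66.6% in clone #1 and 64.9% in clone #2. At the positions that are not on this list the median was 0%, 0%, 0.395%, 0.467% and 0.465% in the same order.

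The known adenosines differed among themselves. Position 159 was at 90.9% in DMSO, 94.5% in STM2457, 93.8% in WT, 92.9% in clone #1 and 90.8% in clone #2. It was the highest in all 3 libraries of the Mettl5 dataset and in STM2457. Positions 27, 99, 475, 583, 675 and 1685 lay between 57.3% and 93.4% in every library, and position 491, with values in DMSO and STM2457 alone, was at 80% and 75%. A lower tier was formed by positions 166 (17.4% to 34.1% over the libraries), 519 (16% to 44.9%), 597 (26.4% to 63.3%), 1038 (8.7% to 27.2%) and 1390 (29.3% to 49.3%). At positions 1038 and 1390 the same adenosine also had m6A calls in 24.3% to 29.7% and 40% to 57.9% of valid calls, so the calls of both modifications together were the majority at position 1390 in every library.

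**Figure D5:**
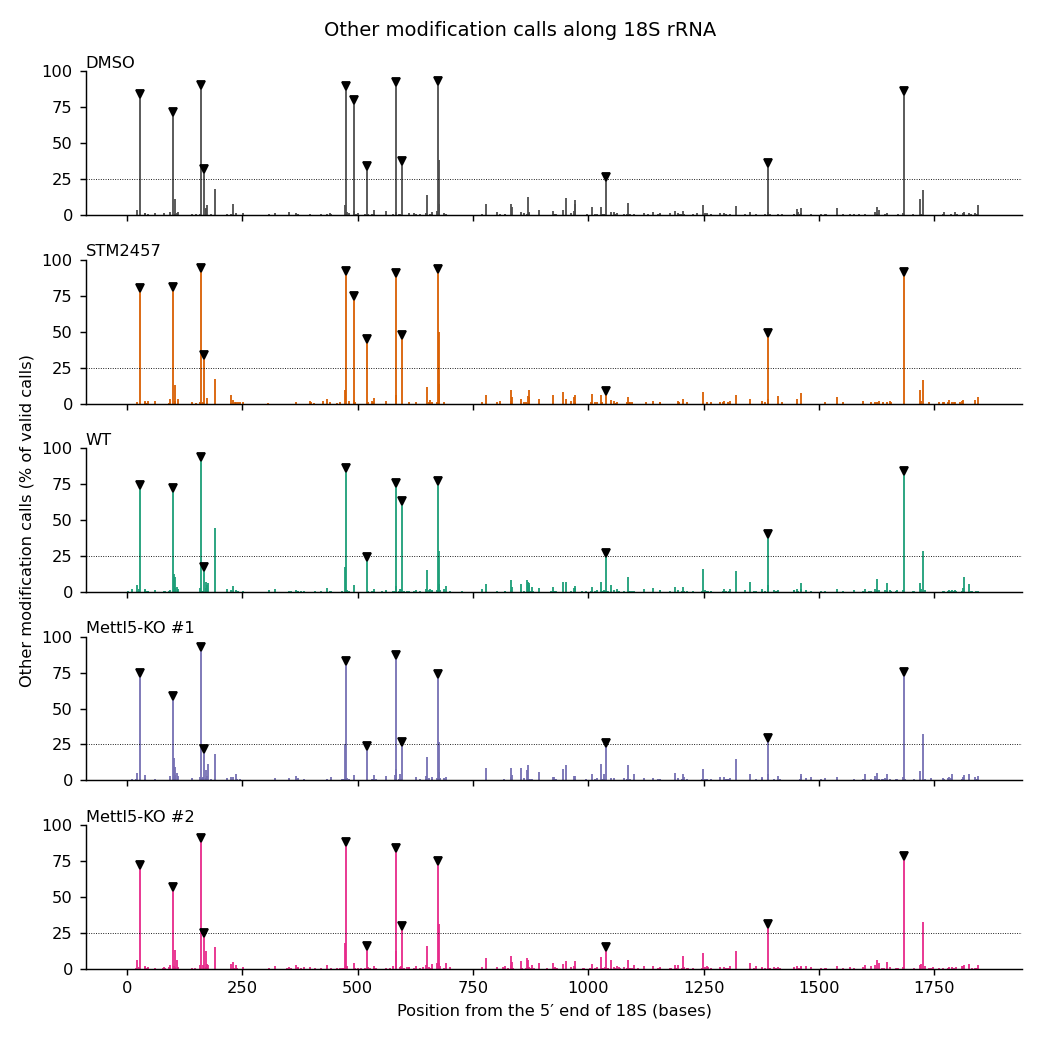
Level of other modification calls (inosine or 2′-O-methyladenosine), as a percent of valid calls, at each position of 18S from the 5′ end, with 1 panel for each library; triangles mark the adenosines known as 2′-O-methylated in human 18S and the dotted line is at 25%. Most peaks stand at the same places in the panels that have values there, though their heights differ. Few positions without a triangle reach 25%.

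4 positions at 25% or more were not on the list of known adenosines. Position 676 lies next to the known position 675 and was at 38.7% in DMSO, 50% in STM2457, 28.3% in WT, 26.7% in clone #1 and 30.9% in clone #2. Position 472 was at 6.7%, 9.71%, 17.6%, 25% and 18.1%, and position 1726 at 17.5%, 16.7%, 28.4%, 32.6% and 32.7%, in the same order. At position 1726 the 3 libraries of the Mettl5 dataset lay above both libraries of the other dataset. Position 191 is described with the clones.

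Other modification was lower in both clones at 2 of 420 positions, against 0.00102% of all positions of the dataset, and these were the only 2 in the dataset. Position 597, the known Am590, has the sequence tttaacgaggAtccattggag (chr17:39846939-39846959). Its level was 63.3% in WT (62% to 64.6%), 26.4% in clone #1 (19.3% to 34.5%) and 29.8% in clone #2 (22.6% to 37.8%), a clone mean of 28.1% ± 2.38 (SD, n = 2). Adjusted p-values of Fisher's exact test were 5.7e-13 and 3.5e-11. DMSO had 38% and STM2457 47.6%, so WT was again above all other libraries.

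Position 191, which is not on the list, has the sequence acgggcgctgAccccccttcc (chr17:39846533-39846553). It was at 44.2% in WT, 18.1% in clone #1 and 14.9% in clone #2 (clone mean 16.5% ± 2.26, SD, n = 2), and the test gave adjusted p-values of 0.00059 and 4.6e-06 by Fisher's exact test. DMSO had 18.2% and STM2457 17.1%, inside the range of the clone intervals. With WT counts scaled to the depth of the clones, position 597 passed in both clones and position 191 did not. The share of coverage ending with 18S was also highest in WT, as given above, and its part in these differences was not tested.

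STM2457 against DMSO gave 0 of 418 positions for other modification in either direction, against 0.000212% of all positions, and 6 at an unadjusted p below 0.05 in Fisher's exact test. The largest absolute difference was 17.5 points, at position 1038 (26.2% in DMSO, 8.7% in STM2457, adjusted p = 1, Fisher's exact test). Clone #2 against clone #1 gave 0 of 420, against 0.00102%, and 4 at an unadjusted p below 0.05.

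Failed calls, those under the confidence filter, had a higher median share on 18S than over all positions. Their median share of failed plus valid calls was 10.2% in DMSO, 11.3% in STM2457, 10.1% in WT, 12.7% in clone #1 and 12.7% in clone #2, against 6.25%, 6.06%, 5.71%, 5.71% and 5.98% over all positions of these libraries. The highest shares were at positions 102, 103 and 676. At position 102, with values in the Mettl5 dataset alone, 72.6% failed in WT, 74.7% in clone #1 and 73.3% in clone #2. 24 positions in DMSO, 20 in STM2457, 18 in WT, 17 in clone #1 and 18 in clone #2 had a failed share of 50% or more. In the same order that was 5.74%, 4.78%, 4.29%, 4.05% and 4.29% of 18S positions. Over all positions it was 0.241%, 0.259%, 0.0899%, 0.0976% and 0.108%.

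The failed share differed between WT and both clones at 9 of 420 positions, against 0.00613% of all positions, or 12. It was lower in the clones at positions 11, 1253, 1644, 1647, 1814, 1815 and 1849 and higher at positions 237 and 1846. The largest fall was at position 11, from 41.8% in WT to 9.4% in clone #1 and 12% in clone #2, with adjusted p-values of 3.5e-13 and 4.2e-12 by Fisher's exact test. Position 1644 fell from 55% to 25.6% and 26.8%, and position 1647 from 47.7% to 19.8% and 23.6%. DMSO and STM2457 were on the side of the clones at these 3 positions, with 18.3% and 12% at position 11, 10.4% and 14.2% at position 1644, and 6.88% and 16.4% at position 1647. With WT scaled to the depth of the clones, 4 of the 9 passed, which were positions 11, 1644, 1647 and 1815. STM2457 against DMSO gave 0 of 418, against 0.0303%, with 21 at an unadjusted p below 0.05, and clone #2 against clone #1 gave 0 of 420, against 0.0215%, with 16 at an unadjusted p below 0.05 in Fisher's exact test.

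Reads with another base than A were frequent at part of the known adenosines. Their share of all reads crossing a position, the mismatch share, was 25% or more at 14 positions in at least 1 library, and 6 of them were known 2′-O-methylated adenosines (positions 27, 159, 475, 491, 519 and 1685). At position 519 it was 57.7% in DMSO, 49.4% in STM2457, 62% in WT, 55.2% in clone #1 and 54.5% in clone #2, and at position 27 it was 35.9%, 28.6%, 48.7%, 46.7% and 53.6%. The 3 positions on a reference T, 26, 163 and 518, are the base before or close to a known adenosine (27, 166 and 519), and 45.1% to 64.3% of the reads crossing them had another base than A. The levels at these positions describe only the reads that were called as A there. How many positions of the whole series reach a mismatch share of 25% is not given here.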

How the data were processed

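Total RNA of mESCs was ligated to poly(T) barcoded adapters and sequenced directly. Reads were split by barcode with WarpDemuX, and the authors used dorado for base calling, for calling m6A, inosine and 2′-O-methyladenosine and for alignment to mm10, and modkit pileup for the sums. The files that the authors deposited hold counts of valid, m6A, unmodified, other modification, failed, deletion and mismatch calls, without normalization, and a percent, which is 100 times m6A over valid calls. The lowest coverage was 25 valid calls.

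Levels were recomputed from the counts with exact binomial 95% intervals. Each position was compared between libraries by a two-sided Fisher's exact test, and p-values were adjusted by Benjamini-Hochberg over every deposited position that the compared libraries share. A position was called at an adjusted p below 0.05 and a difference of at least 5 points, in both clones for Mettl5-KO. On simulated data the test was checked against known changes (numba 0.67.0, scipy 1.17.1, pandas 2.3.3, Python 3.11.15). Bounds and sequences came from GENCODE M21.

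The members and lists were chosen with earlier results of these data known. Positions named were the METTL5 target, the dimethylated pair, those with m6A or another modification at 25% or more in any library, those called, the 3 with the highest failed share and the known 2′-O-methylated adenosines, whose numbers are general knowledge. The mismatch share, the WT against DMSO positions and the ratio of positions 1812 and 1830 were described after their values were seen. Alternatives were other minimum differences, a coverage minimum of 100, other denominators, each clone left out and, added after the data were seen, WT scaled to clone depth and the clones against DMSO.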

Additional observations from a re-analysis of the deposited data

How the results depend on the processing

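Of the values for counts of 18S positions and for coverage, 71 alternatives kept the value within 1.5 times (coverage within 1 SD) and 9 did not, and of those added after the data were seen 2 did and 4 did not. Positions with lower m6A in both clones were 3 in the analysis as reported, 2 with failed calls in the denominator and 0 with DMSO in place of WT, and with either clone alone they ranged from 3 to 5. Positions with higher m6A in both clones were 0 as reported, 1 with at least 100 valid calls in every library, 2 with DMSO in place of WT, and 0 to 1 with either clone alone. The 1 position higher in STM2457 became 0 with a difference of at least 10 points. Of the 2 positions lower in WT than in DMSO, 1 was left with a difference of at least 10 points and 0 with failed calls in the denominator. Of the 2 positions of other modification in both clones, 1 was left with failed calls in the denominator and 1 with WT scaled to clone depth. Positions with a different failed share were 9 in both clones, 4 with WT scaled, and 14 to 17 with either clone alone. At position 1831 the difference of clone #2 from WT did not pass with failed calls in the denominator (-9.09 points, adjusted p = 1, Fisher's exact test). The cause of these changes was not tested, apart from the stricter minimum, fewer positions or fewer libraries that an alternative consists of. No paired analysis was possible because the groups compared share fewer than 2 replicate numbers. The depth of 25 to 279 valid calls per position in the 4 shallower libraries limited the comparisons to differences of several points.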
